A study of Homo sapiens with 6 samples.

Results

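The regions described here are those that estrogen receptor alpha (ERα) occupied at 42 genes for other nuclear receptors. A region was taken when at least 1 of its peaks had its summit inside the GRCh38 span of one of these genes or within 25 kb of it, in any of 6 peak lists from chromatin immunoprecipitation and sequencing (ChIP-seq). After overlapping peaks of the 6 lists were joined, 658 of 175206 regions met this rule, 469 of them with the strongest summit inside a span and 189 outside. The nearest summit just inside the limit lay 24968 bp from RXRA with 23 fragments, and the nearest just outside lay 25008 bp from RXRA with 38 fragments. ESR1, which encodes ERα itself, is not among the 42 genes.

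All libraries came from MDA-MB-453, a human breast cancer cell line known for lacking functional ERα. The cells carried an ERα transgene switched on by doxycycline: the mutant Y537S (in the ligand-binding domain, active without hormone), the mutant K303R (in the hinge) or the wild-type receptor. Each receptor was grown for 2 days with 2 µg/mL doxycycline together with 1 nM estradiol (E2), or for 2 days with 2 µg/mL doxycycline alone, in medium with 10% fetal bovine serum, whose hormone content the labels do not state. The 6 groups, Y537S with E2, Y537S without E2, K303R with E2, K303R without E2, wild type with E2 and wild type without E2, have 1 library each. Every group thus had doxycycline, cells without doxycycline are not analysed here, and the names of the lists point to 1 clone per receptor.

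Nuclear receptors are transcription factors that share a zinc-finger DNA-binding domain, and most also have a pocket for a small lipophilic ligand. Many of them bind DNA as partners of the retinoid X receptors (RXR), and several recognise the same short DNA element as ERα, so that the genes of the family are a common point of cross-regulation between hormones. In breast epithelium the family is known for steroid, retinoid, vitamin D and thyroid hormone responses.

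The measure used is the number of sequenced fragments over a peak's summit, which was recovered from the authors' deposited fold and p-value of each peak. The lists held 106186 to 125850 peaks on chromosomes 1 to 22 and X, with a median of 23 to 30 fragments per peak. Total reads per library are not in the lists, so libraries were compared after each was scaled to its own median over the 33626 regions found in all 6 lists with a mean of at least 50 fragments, called well covered here. A region was called higher or lower when its ratio was at least 1.5-fold and an exact counting interval that leaves out 0.1% of the probability excluded 1. Printed intervals are 95% counting intervals. With 1 library per group no difference has a replicate check, no p-value is given, and a call compares 2 libraries, not 2 conditions. A tag in the peak names, which looks like a date, is shared by the K303R and wild-type lists and differs in the Y537S lists. In any comparison of Y537S with wild type, the receptor, the cell line and the tag thus differ together. Receptor and cell line are also inseparable when K303R is compared with wild type, since the list names point to 1 clone per receptor.

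ERα was found at every one of the 42 genes in at least 1 library, but so it was at most genes. Any deposited peak lay within 25 kb of 42 of the 42 genes in Y537S cells with E2 (89.7% of all 19974 protein-coding genes), 41 in Y537S cells without E2 (90.8%), 40 in K303R cells with E2 (89%), 40 in K303R cells without E2 (89.4%), 41 in wild-type cells with E2 (90.1%) and 42 in wild-type cells without E2 (90.7%). A peak of any strength therefore hardly separated these genes from the others. One of the 10000 peaks with the highest −log10 p of a library, called strong here, lay near 23 of the genes in Y537S cells with E2 (31.5% of all protein-coding genes), 22 in Y537S cells without E2 (31.7%), 24 in K303R cells with E2 (32%), 23 in K303R cells without E2 (32.1%), 22 in wild-type cells with E2 (29.7%) and 19 in wild-type cells without E2 (29.7%).

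A strong peak lay near 15 of the 42 genes in all 6 libraries (35.7%, with 22% of all protein-coding genes) and near 29 in any library (69%, with 40.7%). The other 13 genes had none. The nuclear receptor genes are long, with a median span of 49.2 kb against 24.2 kb for all protein-coding genes, and a long gene has more room for peaks. Among the 21 of them at least as long as their median, 52.4% had a strong peak in all 6 libraries, against 30.5% of the 6351 protein-coding genes of that length. A well covered region lay near 34 of the 42 genes (81%, with 58.3% of all), and near 81% of the 21 longer ones, against 70.6% of the protein-coding genes of that length.

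The regions were spread unevenly over the genes, as the plot of regions per gene shows. RORA, for a receptor of the circadian feedback loop, had 83 regions, RARB, for retinoic acid receptor beta, had 59, ESRRG, for estrogen-related receptor gamma, had 55, and THRB, for thyroid hormone receptor beta, had 51. These are the 4 longest of the 42 genes, and they held 248 of the 658 regions. RXRA was much shorter and still had 38 regions, 25 of them in all 6 lists, or 23.2 regions per 100 kb of span and flanks, where the median of the 42 genes was 9.39 and that of all protein-coding genes was 7.53. At the low end NR2E3, for a photoreceptor nuclear receptor, had 1 region and RORB, for a receptor of retina and brain, had 2, and both were in only 3 of the 6 lists. Of all 658 regions, 287 were in all 6 lists (43.6%, with 38.7% of all regions), 238 were in 2 to 5 lists and 133 were in 1 list (20.2%, with 21.7%).

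**Figure D1:**
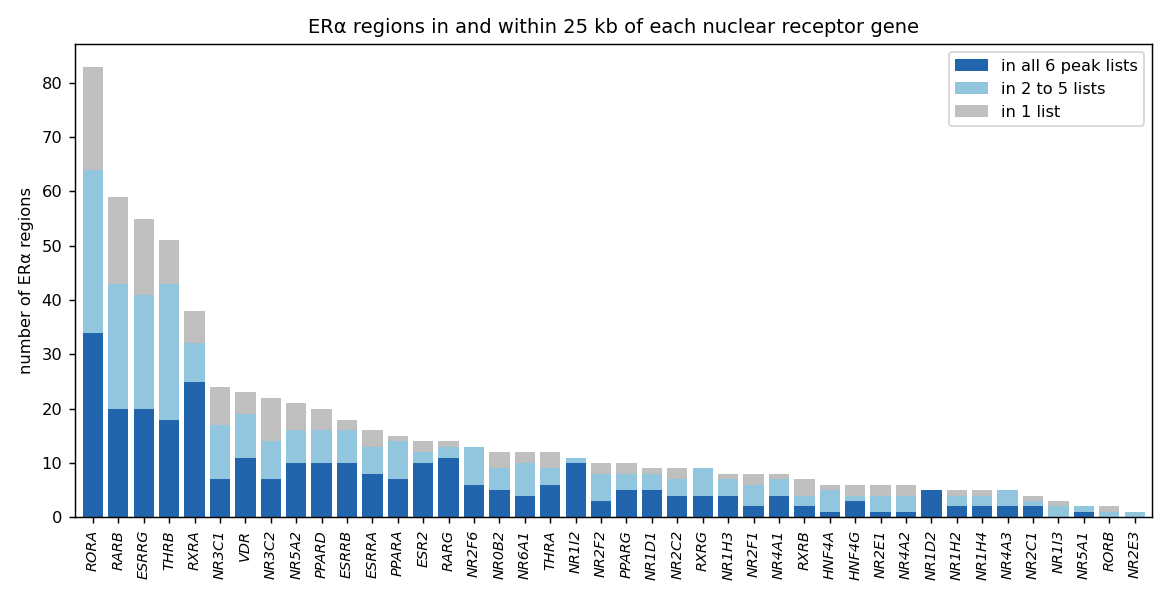
Number of ERα regions in or within 25 kb of each of the 42 genes, ordered by number and stacked by how many of the 6 peak lists held the region. RORA has 83 regions and RXRA has the most in all 6 lists after RORA (25 and 34), while NR1I3, RORB and NR2E3 have none in all 6 lists.

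At 4 of the genes a summit fell between 250 bases before and 50 bases after a listed transcription start in all 6 libraries. The 250 bases before the start are shown for these promoters, from RefSeq (GRCh38.p14). They run 5′ to 3′ on the strand of the gene and end at the base before the start. Capitals mark the 21 bases centred on the summit of the library with the most fragments there. The ESRRG stretch is chr1:217089619-217089868, minus strand, that of THRB is chr3:24495709-24495958, minus strand, that of NR3C1, which encodes the glucocorticoid receptor, is chr5:143404237-143404486, minus strand, and that of NR2C1, for testicular receptor 2, is chr12:95073619-95073868, minus strand.
ESRRG: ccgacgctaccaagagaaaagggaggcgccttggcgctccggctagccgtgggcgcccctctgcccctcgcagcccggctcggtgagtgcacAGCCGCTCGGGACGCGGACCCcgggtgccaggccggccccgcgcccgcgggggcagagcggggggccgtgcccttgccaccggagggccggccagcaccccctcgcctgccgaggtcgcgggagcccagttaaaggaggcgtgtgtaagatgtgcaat
THRB: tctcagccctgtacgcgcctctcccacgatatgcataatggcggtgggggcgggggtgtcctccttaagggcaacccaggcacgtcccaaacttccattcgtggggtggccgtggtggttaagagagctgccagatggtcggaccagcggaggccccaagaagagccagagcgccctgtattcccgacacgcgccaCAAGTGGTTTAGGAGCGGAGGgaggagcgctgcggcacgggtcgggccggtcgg
NR3C1: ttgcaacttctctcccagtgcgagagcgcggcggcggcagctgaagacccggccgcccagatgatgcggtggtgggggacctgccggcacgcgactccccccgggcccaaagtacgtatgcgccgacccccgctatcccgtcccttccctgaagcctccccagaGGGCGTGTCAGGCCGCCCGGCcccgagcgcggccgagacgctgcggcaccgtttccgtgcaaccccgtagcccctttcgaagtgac
NR2C1: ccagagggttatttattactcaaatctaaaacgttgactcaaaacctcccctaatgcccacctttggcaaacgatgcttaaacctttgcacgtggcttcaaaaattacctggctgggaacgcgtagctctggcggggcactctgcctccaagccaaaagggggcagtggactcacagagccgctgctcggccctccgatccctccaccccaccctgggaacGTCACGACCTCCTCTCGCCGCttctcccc

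The G and C content of these stretches was 74.4% at ESRRG, 65.2% at THRB, 70.8% at NR3C1 and 56.4% at NR2C1. The THRB promoter summit held 113 fragments with E2 and 127 without E2 in Y537S cells, 102 with E2 and 94 without E2 in K303R cells, and 75 with E2 and 97 without E2 in wild-type cells. The NR2C1 promoter summit was the weakest of the 4, with 33 fragments with E2 and 16 without E2 in Y537S cells, 13 with E2 and 29 without E2 in K303R cells, and 20 with E2 and 22 without E2 in wild-type cells. Promoter windows of 300 bases, 250 before and 50 after a start, were on hand for 37 of the 42 genes. A summit lay inside such a window in all 6 libraries for these 4 genes (3.79% of all genes with a window), and within 1 kb of a listed start in all 6 libraries for 18 genes (25.8%). All genes with a window numbered 27195, more than the 19974 protein-coding genes counted above. The 37 genes had 83 windows and the 27195 had 34961. The nuclear receptor genes thus had more windows per gene, and the shares were not matched for this.

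The full palindromic estrogen response element, GGTCA and TGACC with 3 bases between them, was in 0 of the 83 windows of the nuclear receptor genes and in 20 of all 34961 windows (0.0572%). Its single arm GGTCA, searched on both strands like all the patterns and also contained in the full element, was in 32 of the 83 windows (38.6%, with 37.3% of all). The AP-1 site TGANTCA was in 5 (6.02%, with 7.68%), the forkhead site TGTTTAC in 3 (3.61%, with 3.42%) and the E-box CACGTG in 6 (7.23%, with 7.27%). In the NR2C1 stretch printed above, an AP-1 match began 216 bases and an E-box match 162 bases before the start, while the stretches of ESRRG, THRB and NR3C1 held none of the 5 patterns. The shares in the windows of the nuclear receptor genes stood close to those in all windows of the same length.

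Most of the strongest ERα regions were not at promoters. The strongest region of a gene had its summit inside the gene's span for 23 of the 42 genes and outside for 19, and for 9 it lay in another protein-coding gene, so that its assignment rests on distance alone. THRA, for thyroid hormone receptor alpha, and NR1D1, for the clock repressor REV-ERBα, overlap on chromosome 17 and share 8 regions, including the strongest of both.

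The highest fragment number of all was at NR5A2, for the orphan receptor LRH-1, at chr1:200016584-200017382, 10712 bp before the gene. This region held 352 fragments with E2 and 324 without E2 in Y537S cells, 392 with E2 and 354 without E2 in K303R cells, and 367 with E2 and 375 without E2 in wild-type cells. The receptors and treatments stood close together, and the region was called in none of the 7 comparisons. At RXRA, for the main dimer partner of the family, the region chr9:134338067-134338712 inside the span held 277 fragments with E2 and 260 without E2 in Y537S cells, 321 with E2 and 269 without E2 in K303R cells, and 333 with E2 and 338 without E2 in wild-type cells. At ESR2, for estrogen receptor beta, the region chr14:64234798-64235463 inside the span held 289 fragments with E2 and 273 without E2 in Y537S cells, 304 with E2 and 292 without E2 in K303R cells, and 300 with E2 and 298 without E2 in wild-type cells. Neither of these was called in any comparison.

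Among the other steroid and estrogen-related receptor genes, ESRRB had 233 to 295 fragments in 5 of the libraries and 188 in K303R cells without E2 at chr14:76394433-76395509, inside the span. ESRRA, for a regulator of mitochondrial genes, was bound at chr11:64304341-64305251, 686 bp before its start, with 159 to 196 fragments over the 6 libraries. Among the lipid-sensing receptors, the highest values were at PPARD, for the fatty acid receptor PPARδ, at chr6:35402460-35403198 inside the span. It held 189 fragments with E2 and 179 without E2 in Y537S cells, 235 with E2 and 189 without E2 in K303R cells, and 279 with E2 and 278 without E2 in wild-type cells.

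The remaining genes with the highest values came from several branches of the family. NR2C1 had 205 to 243 fragments at chr12:95098205-95098841, in the neighbouring gene FGD6. RORA had 156 to 243 at chr15:60861417-60862217 and RARB 93 to 233 at chr3:24991706-24992540, both inside the gene. NR0B2, for SHP, a receptor without a DNA-binding domain that represses others in liver, had 123 to 240 at chr1:26913989-26914515, 264 bp outside its span and in NUDC. NR2F6, for an orphan receptor of the COUP-TF group, had 157 to 204 at chr19:17248173-17248816, NR6A1, for germ cell nuclear factor, had 117 to 198 at chr9:124791896-124792760, in OLFML2A, and the shared THRA and NR1D1 region had 135 to 184 at chr17:40097949-40098710. At 8 of these 14 genes K303R cells without E2 had the lowest unscaled number and at the other 6 Y537S cells without E2 had it. The median over all well covered regions was 73 fragments in K303R cells without E2 and 90 to 112 in the other libraries, which the scaling takes into account.

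**Figure D2:**
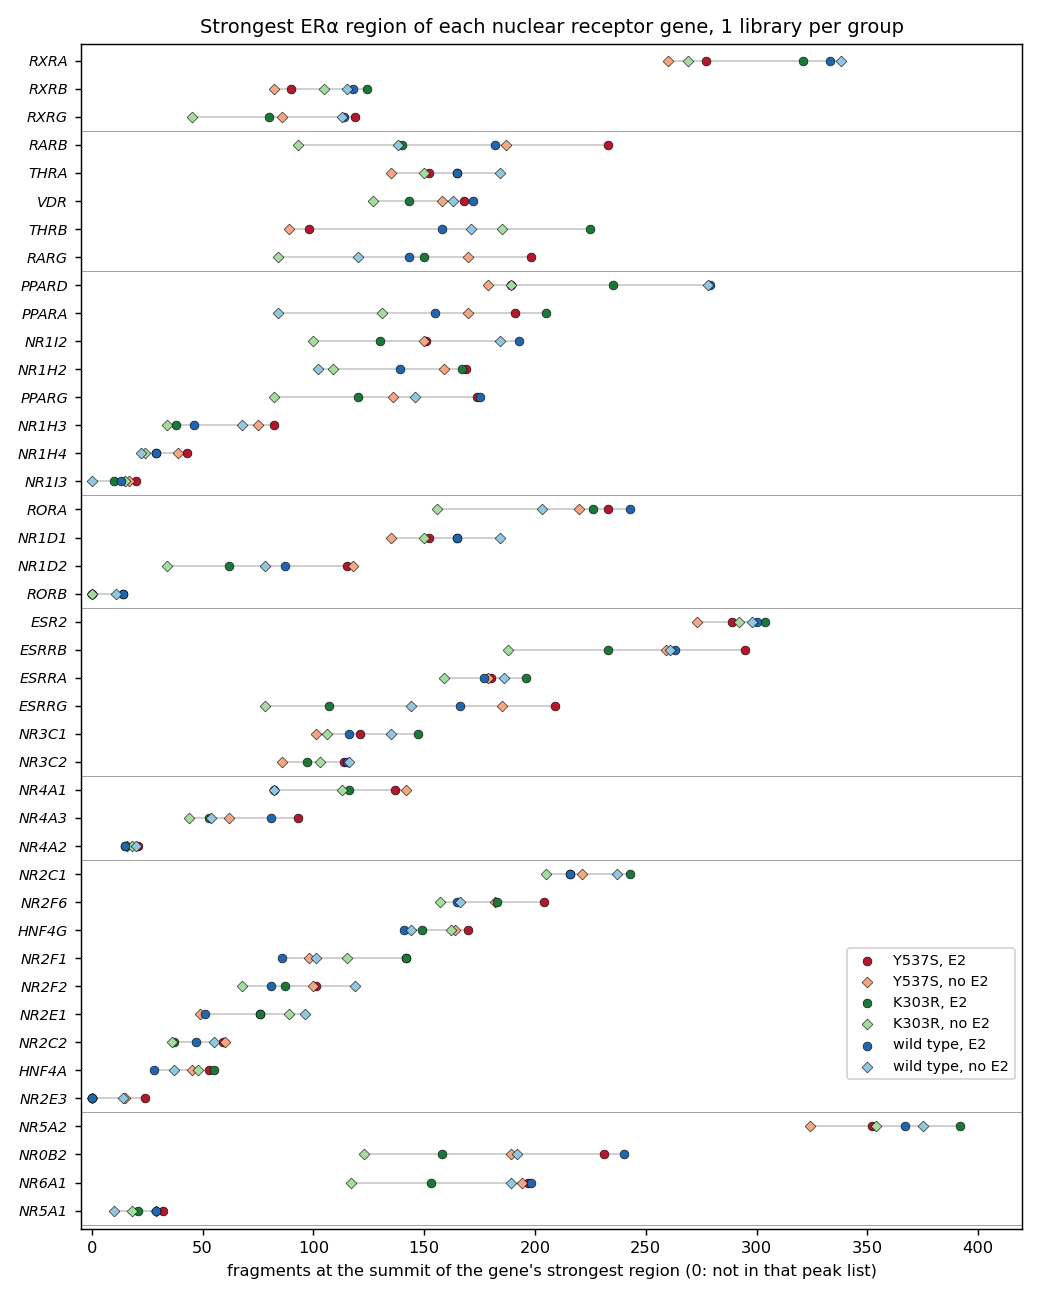
Fragments at the summit of each gene's strongest region in the 6 libraries, unscaled, grouped by role from RXR at the top to the NR5, NR6 and NR0 receptors at the bottom. NR5A2 reaches 324 to 392 fragments in every library, whereas NR1I3, RORB, NR2E3 and NR4A2 stay at 24 or below; THRA and NR1D1 share 1 region.

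At the weak end, 8 genes had no well covered region: NR2C2, HNF4A, NR1H4, NR5A1, NR4A2, NR1I3, NR2E3 and RORB. NR1H4 encodes the bile acid receptor FXR and NR1I3 the xenobiotic receptor CAR, both known mainly from liver, while NR5A1 encodes the steroidogenic factor SF-1 of adrenal and gonad. The strongest region of HNF4A, for a liver and gut factor, held 53 fragments with E2 and 45 without E2 in Y537S cells, 55 with E2 and 48 without E2 in K303R cells, and 28 with E2 and 37 without E2 in wild-type cells. That of RORB held 14 with E2 in Y537S cells and 14 with E2 and 11 without E2 in wild-type cells, and was listed in no other library. The smallest peaks of the lists held 5 to 6 fragments. Regions under a mean of 50 fragments or missing from a list, such as these, were not compared.

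The question put to the E2 libraries was whether hormone moved ERα at these genes. In Y537S cells 0 of the 166 well covered regions were called higher with E2 (0.0862% of all well covered regions) and 0 lower (0.0833%), and with a 95% interval 2 were higher and 0 lower. In K303R cells 2 were higher (2.05%) and 1 lower (1.05%). In wild-type cells 3 were higher (1.55%) and 1 lower (0.684%). These shares were close to those over the genome, and the median log2 ratio with E2 over the 166 regions was −0.01 for Y537S cells, −0.04 for K303R cells and −0.02 for wild-type cells. When libraries were scaled by their lowest local background instead, 22 regions were higher with E2 and 0 lower in K303R cells, because that scaling moved the median of all well covered regions by 0.39 on the log2 scale, while centring within 5 Mb windows gave 2 higher and 0 lower and centring on the median of the ratios gave 3 higher and 0 lower.

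In wild-type cells the regions higher with E2 were at PPARA, for the fatty acid receptor PPARα, and near NR2F6. At PPARA, the region chr22:46151425-46152103, 985 bp after a listed start, held 191 fragments with E2 and 170 without E2 in Y537S cells, 205 with E2 and 131 without E2 in K303R cells, and 155 with E2 and 84 without E2 in wild-type cells. Wild type without E2 was the lowest of the 6 libraries there. The E2 ratio was 0.993 for Y537S, 1.27 for K303R and 1.81 for wild type (1.38 to 2.39, called). A second PPARA region, chr22:46132627-46133793, 17064 bp before the gene, held 117 fragments with E2 and 102 without E2 in Y537S cells, 111 with E2 and 56 without E2 in K303R cells, and 100 with E2 and 52 without E2 in wild-type cells, with a wild-type ratio of 1.89 (1.34 to 2.69). Centred within windows of 5 Mb this ratio was 1.73 and no longer called.

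The region near NR2F6, chr19:17209067-17209704, lay 22581 bp outside the gene and in MYO9B. It held 129 fragments with E2 and 91 without E2 in Y537S cells, 83 with E2 and 35 without E2 in K303R cells, and 44 with E2 and 16 without E2 in wild-type cells. E2 was the higher member of each pair, by 1.25-fold for Y537S (not called), 1.92-fold for K303R (1.28 to 2.94, not called) and 2.70-fold for wild type (1.49 to 5.12, called). In the other direction, a region 4779 bp outside NR2E1, for the neural receptor tailless, at chr6:108193125-108193885, held 76 fragments with E2 and 49 without E2 in Y537S cells, 76 with E2 and 89 without E2 in K303R cells, and 51 with E2 and 96 without E2 in wild-type cells. The wild-type ratio was 0.521 (0.363 to 0.739), and neither mutant pair was called. This NR2E1 region was also called lower in Y537S without E2 than in wild type without E2, with a ratio of 0.516. Both calls share the wild-type library without E2, so a high value there enters both. Chromosome 6 as a whole was low in Y537S, with a median log2 ratio of −0.40 without E2. Centred within 5 Mb windows, the NR2E1 call in Y537S against wild type was lost.

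These PPARA regions and the NR2F6 region were also called higher in Y537S without E2 than in wild type without E2, by 2.04-fold and 1.98-fold at PPARA and 5.74-fold at NR2F6. These comparisons share the wild-type library without E2, so a low value in that library enters both. In K303R without E2 the ratio to wild type without E2 was 2.14 at the first PPARA region (log2 ratio 1.10), and at NR2F6 its log2 was 1.58, both called.

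In K303R cells E2 went with more ERα at RARG and ESRRB and with less at THRB. Inside RARG, for retinoic acid receptor gamma, chr12:53214318-53214739 held 107 fragments with E2 and 81 without E2 in Y537S cells, 79 with E2 and 30 without E2 in K303R cells, and 58 with E2 and 44 without E2 in wild-type cells, and the K303R ratio was 2.14 (1.39 to 3.37). Inside ESRRB, chr14:76490559-76491156 held 202 fragments with E2 and 180 without E2 in Y537S cells, 147 with E2 and 58 without E2 in K303R cells, and 204 with E2 and 150 without E2 in wild-type cells, with a K303R ratio of 2.06 (1.51 to 2.84). K303R without E2 was the lowest library at both, and the ESRRB region was also called lower in K303R without E2 than in wild type without E2. Inside THRB, chr3:24227594-24228529 held 92 fragments with E2 and 94 without E2 in Y537S cells, 35 with E2 and 59 without E2 in K303R cells, and 84 with E2 and 102 without E2 in wild-type cells. Its K303R ratio of 0.481 (0.307 to 0.743) was 0.527 and not called when centred within 5 Mb windows.

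**Figure D3:**
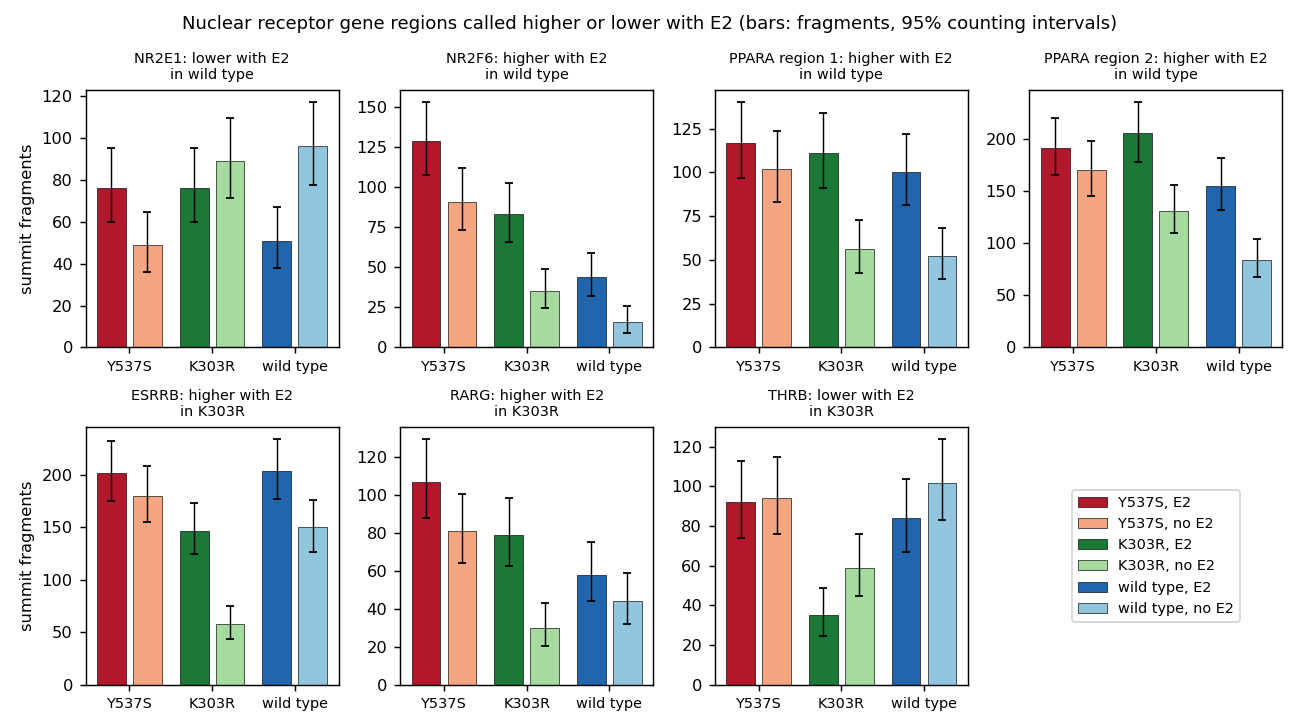
Summit fragments, unscaled, at the 7 regions called with E2, with E2 left of no E2 for each receptor; bars are single libraries and lines are 95% counting intervals. The upper row holds the calls in wild type, where the 2 PPARA regions (1 is the one 17064 bp before the gene) and the NR2F6 region have their lowest bar in wild type without E2, and the lower row holds the calls in K303R.

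No region was called with E2 in both K303R and wild type, a number near that over the genome, where 125 of all well covered regions were higher in both (0.372%), and no region of these genes was called in opposite directions in 2 receptors. Regions present in a list with E2 and absent without it, or the reverse, were counted for each receptor. Of those listed in either Y537S library, 64 were present only with E2 (13.0%, with 11% of all) and 54 only without E2 (10.9%, with 14.5% of all). For K303R 75 were present only with E2 (15.1%, with 15.7%) and 67 only without E2 (13.5%, with 15%). For wild type 69 were present only with E2 (12.8%, with 12.2%) and 66 only without E2 (12.3%, with 15.5%). Regions listed with E2 and absent without it in each of the 3 receptors numbered 2 (0.155% of all), both inside THRB. One held 11 fragments in Y537S cells, 10 in K303R cells and 21 in wild-type cells with E2, and the other held 11 in Y537S cells, 11 in K303R cells and 13 in wild-type cells with E2. The reverse was found for 1 region (0.252% of all), 2590 bp outside VDR, the vitamin D receptor gene, with 13 fragments in Y537S cells and 12 in both K303R and wild-type cells without E2. Peaks of this size are near the floor of the lists, so their absence elsewhere may not be a loss of binding.

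More regions were called between a mutant and the wild-type library than between the E2 and no-E2 libraries of a receptor, in shares near the genome-wide ones. Scaled by the lowest local background this did not hold for K303R with E2, which had 5 higher and 10 lower against wild type and 22 higher and 0 lower against K303R without E2. With E2, 8 of the 166 regions were higher in Y537S than in wild type (6.06% of all) and 10 lower (8.59%). Without E2, 17 were higher (8.05%) and 15 lower (9.15%). In K303R 8 were higher (6.33%) and 8 lower (7.89%) with E2, and 10 were higher (5.49%) and 6 lower (5.86%) without E2. Over the 166 regions the median log2 ratio to wild type was −0.01 with E2 and −0.04 without E2 for Y537S, and 0.01 with E2 and 0.06 without E2 for K303R. In all, 55 of the 166 regions at 26 genes were called in at least 1 of the 7 comparisons (33.1%, with 38.9% of all). The balance of higher and lower calls depended on the scaling. Scaled by the lowest local background, Y537S had 20 higher and 8 lower with E2 and 35 higher and 7 lower without E2, and K303R had 0 higher and 39 lower without E2. Centred within 5 Mb windows, Y537S had 13 higher and 9 lower with E2 and 18 higher and 10 lower without E2, and centred on the median of the ratios it had 13 higher and 10 lower with E2. Directions below are therefore relative to the median region, and regions missing from a library could not be called.

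**Figure D4:**
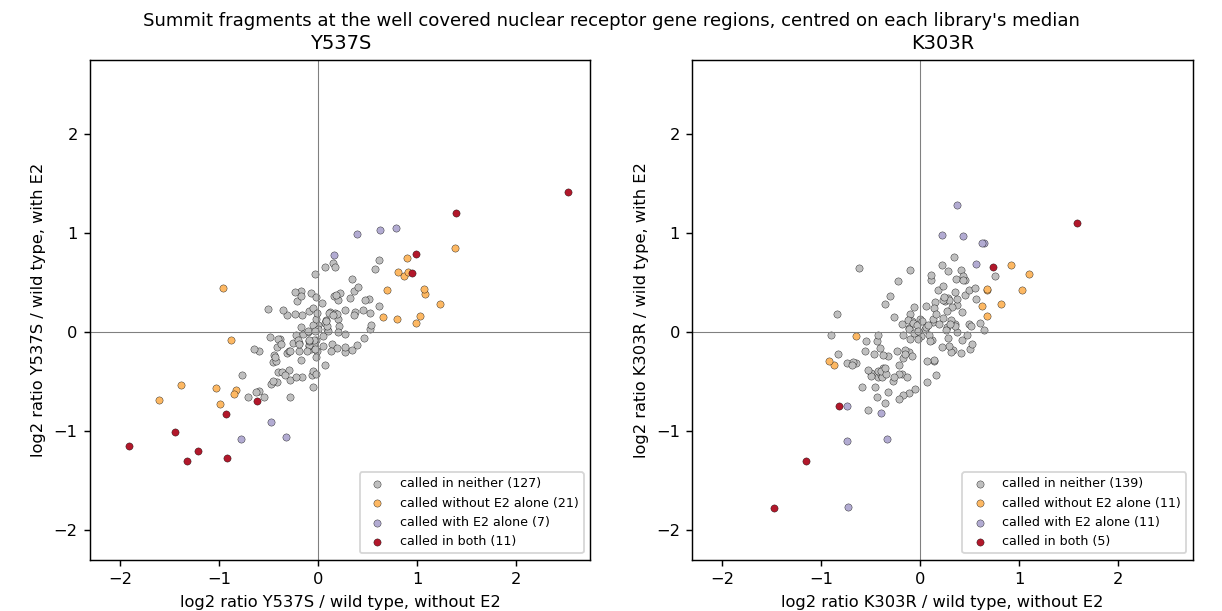
log2 ratio of scaled summit fragments, mutant over wild type, without E2 (horizontal) and with E2 (vertical), for the 166 well covered regions, with Y537S left and K303R right; each point is a region. The comparisons with and without E2 share no library, and no point is called in opposite directions.

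The mutant libraries departed from wild type in the same direction without and with E2 at 11 regions for Y537S, 4 higher (3.34% of all) and 7 lower (4.79%), and at 5 regions for K303R, 2 higher (2.58%) and 3 lower (3.54%). None was called in opposite directions. The higher Y537S regions lay at NR2F6, PPARA and RARG. The MYO9B region near NR2F6 was 2.67-fold higher with E2 (1.88 to 3.85) and 5.74-fold higher without E2 (3.35 to 10.5). Inside PPARA, chr22:46171168-46172130 held 86 fragments with E2 and 91 without E2 in Y537S cells and 34 with E2 and 35 without E2 in wild-type cells, a ratio of 2.30 with E2 (1.53 to 3.53) and 2.63 without E2 (1.76 to 4.00). Both Y537S numbers were above both wild-type ones. K303R cells held 73 fragments with E2 and 33 without E2, unscaled. With E2 the K303R ratio to wild type was 2.43, called higher and the highest of the 166 regions in that comparison. Without E2 the region was not called in K303R.

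RARG was the gene with most regions called higher in Y537S without E2, 4 of its 7 well covered regions (8.05% of all well covered regions), and none was lower. PPARA had 3 of its 4 well covered regions called higher in that comparison, and none lower. At chr12:53210893-53211377, inside RARG, Y537S cells held 196 fragments with E2 and 187 without E2, and wild-type cells held 118 with E2 and 98 without E2. The ratio was 1.51 with E2 (1.20 to 1.92) and 1.93 without E2, and centred within 5 Mb windows the ratio with E2 was 1.47 and no longer called. The other 3 RARG regions, in Y537S over wild type, had ratios of 1.10 with E2 and 1.74 without E2, 1.68 with E2 and 1.86 without E2, and 1.22 with E2 and 2.35 without E2, and were not called with E2. RXRA had 5 of its 18 well covered regions called higher in Y537S, 3 with E2 (6.06% of all) and 2 without E2 (8.05%), and none lower, but no region was called in both treatments. In K303R 1 RXRA region was called higher with E2 (6.33% of all) and 2 without E2 (5.49%), and none lower. Centred within 5 Mb windows, 0 RXR regions were called higher in K303R in either treatment. RARG, RXRA and the PPARA count were singled out here after their values were seen.

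Regions lower in Y537S in both treatments lay at RARB, NR6A1, ESR2, RORA, THRB and PPARD. Inside RARB, chr3:25260543-25261101 held 45 fragments with E2 and 29 without E2 in Y537S cells and 91 with E2 and 110 without E2 in wild-type cells, a ratio of 0.450 with E2 (0.308 to 0.651) and 0.266 without E2. Inside ESR2, chr14:64232273-64232828 held 62 fragments with E2 and 53 without E2 in Y537S cells, 130 with E2 and 138 without E2 in K303R cells, and 139 with E2 and 134 without E2 in wild-type cells, a ratio of 0.406 with E2 and 0.400 without E2. This region lies beside the strongest ESR2 region, which was not called, so the lower value in Y537S was not shared by the whole gene.

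RORA had 2 such regions. At chr15:61170858-61171588 the ratio was 0.434 with E2 and 0.432 without E2, from 60 fragments with E2 and 56 without E2 in Y537S cells and 126 with E2 and 131 without E2 in wild-type cells. At chr15:60966333-60966930 it was 0.413 with E2 and 0.530 without E2, from 63 fragments with E2 and 64 without E2 in Y537S cells and 139 with E2 and 122 without E2 in wild-type cells. Chromosome 15 had a median log2 ratio of −0.22 with E2 and −0.21 without E2 in Y537S against wild type. Centred within 5 Mb windows, the first RORA region had ratios of 0.496 with E2 and 0.488 without E2. The second had 0.472 with E2 and 0.599 without E2, and all of these were still called. Scaled by the lowest local background, the second region without E2 had a ratio of 0.643 and was not called. The gene was not lowered as a whole: 2 other RORA regions were called higher in Y537S without E2. Inside THRB, chr3:24268719-24269303, the strongest region of that gene, held 98 fragments with E2 and 89 without E2 in Y537S cells, 225 with E2 and 185 without E2 in K303R cells, and 158 with E2 and 171 without E2 in wild-type cells. Its Y537S ratio was 0.565 with E2 and 0.526 without E2, and with E2 the K303R ratio was 1.61, called higher. Inside NR6A1, chr9:124708660-124709374 had a ratio of 0.498 with E2 and 0.368 without E2. Scaled by the lowest local background, the NR6A1 ratio with E2 was 0.565 and no longer called.

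The PPARD region named above was called lower in Y537S, with ratios of 0.617 with E2 and 0.650 without E2. Chromosome 6 as a whole was low in Y537S, with a median log2 ratio over its well covered regions of −0.39 with E2 and −0.40 without E2. Centred within 5 Mb windows the PPARD ratios were 0.835 with E2 and 0.943 without E2, and neither was called.

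For K303R the lower regions were at NR3C1, RORA and PPARG, the gene of the adipocyte receptor PPARγ. Inside NR3C1, chr5:143345982-143346456 held 25 fragments with E2 and 27 without E2 in K303R cells and 97 with E2 and 103 without E2 in wild-type cells, a ratio of 0.292 with E2 (0.180 to 0.457) and 0.359 without E2. Y537S cells held 72 with E2 and 50 without E2, between the other receptors. Inside RORA, chr15:60712110-60712765 held 30 fragments with E2 and 24 without E2 in K303R cells and 84 with E2 and 73 without E2 in wild-type cells, a ratio of 0.405 with E2 and 0.450 without E2. Inside PPARG, chr3:12371615-12372175 held 69 with E2 and 47 without E2 in K303R cells and 131 with E2 and 114 without E2 in wild-type cells, a ratio of 0.597 with E2 and 0.565 without E2. With a minimum mean of 20 fragments, the PPARG ratios were 0.618 with E2 and 0.585 without E2, and neither was called.

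Both K303R regions higher in the 2 treatments were near NR2F6, and the same regions were higher in Y537S. The MYO9B region was 2.14-fold higher in K303R than in wild type with E2 (1.47 to 3.16), and without E2 the interval of the ratio was 1.62 to 5.80. The other, chr19:17227701-17228359 in OCEL1, held 201 fragments with E2 and 185 without E2 in Y537S cells, 147 with E2 and 114 without E2 in K303R cells, and 106 with E2 and 94 without E2 in wild-type cells, a K303R ratio of 1.57 with E2 and 1.66 without E2. Chromosome 19 had a median log2 ratio of 0.40 with E2 and 0.43 without E2 in K303R against wild type, and of 0.27 with E2 and 0.21 without E2 in Y537S. Centred within 5 Mb windows, no K303R call remained at these regions, with K303R ratios of 1.68 with E2 and 2.30 without E2 at the MYO9B region and 1.24 with E2 and 1.27 without E2 at the OCEL1 region. Under the same centring the Y537S ratio was 2.14 with E2 and 4.94 without E2 at the MYO9B region, both called, and at the OCEL1 region 1.39 with E2, no longer called, and 1.71 without E2, called.

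**Figure D5:**
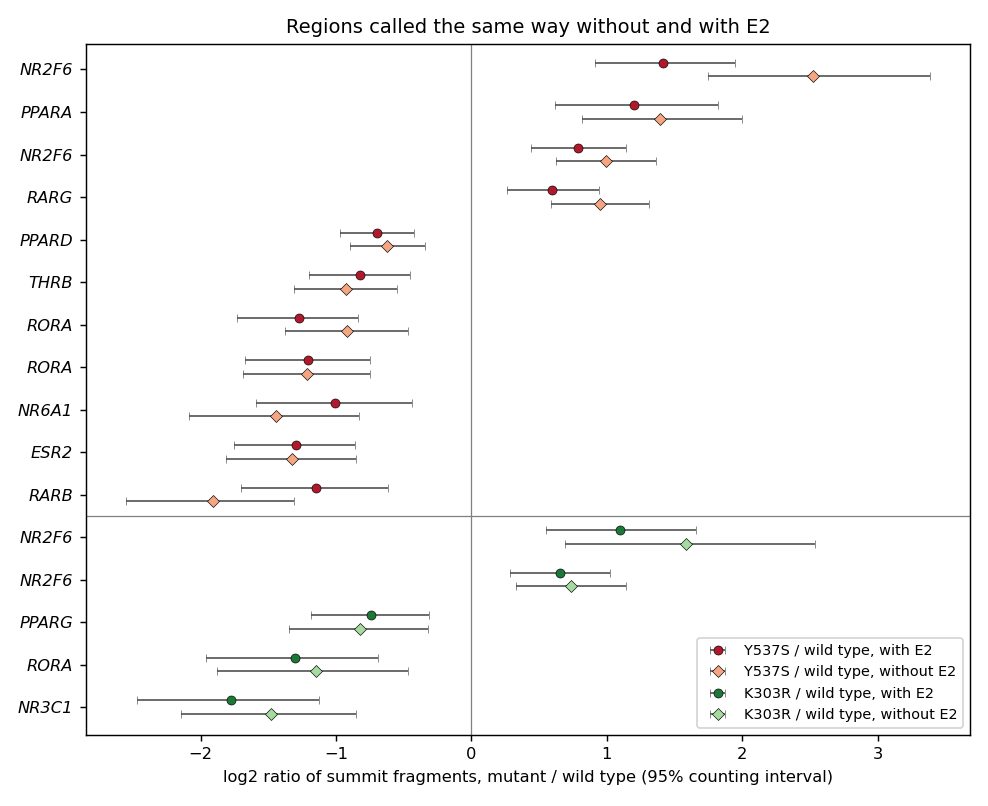
log2 ratio of mutant over wild type at the regions called the same way with E2 (circles) and without E2 (diamonds), Y537S above the line and K303R below it; bars are 95% counting intervals. The widest bars belong to the NR2F6 region in MYO9B, whose wild-type library without E2 held 16 fragments.

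By role, the calls were few and their balance moved with the scaling. Over all well covered regions the shares called were, in Y537S, 6.06% higher and 8.59% lower with E2 and 8.05% higher and 9.15% lower without E2, and in K303R 6.33% higher and 7.89% lower with E2 and 5.49% higher and 5.86% lower without E2. With so few regions per role, no difference of a role from these shares was tested. Of 23 well covered RXR regions, 3 were higher and 0 lower in Y537S with E2, and 2 were higher and 1 lower without E2, against 4 and 0 with E2 and 5 and 0 without E2 when scaled by the lowest local background. Of 31 regions at steroid and estrogen-related receptor genes, 0 were higher and 2 lower in Y537S with E2, and 0 were higher and 5 lower without E2, where scaling by the lowest local background gave 2 higher and 2 lower. In K303R 0 of them were higher and 2 lower in each treatment, against 0 higher and 3 lower with E2 and 0 higher and 10 lower without E2 when scaled by the lowest local background, and 0 higher and 1 lower with E2 and 1 higher and 2 lower without E2 within 5 Mb windows. Of 43 regions at thyroid hormone, retinoic acid and vitamin D receptor genes, 1 was higher and 4 lower in Y537S with E2, and 5 were higher and 2 lower without E2, where scaling by the lowest local background gave 5 higher and 4 lower with E2 and 13 higher and 2 lower without E2. In K303R 2 of the 43 were higher and 3 lower with E2, and 1 and 0 without E2. The HNF4, COUP-TF, testicular and photoreceptor/tailless receptor genes had 14 well covered regions. In K303R 3 of the 14 were higher and 0 lower with E2, and 4 and 0 without E2. NR2F6 held 2 of the higher calls with E2 and 3 of those without E2. Within 5 Mb windows the 14 gave 3 and 0 with E2 and 2 and 0 without E2. Scaled by the lowest local background they gave 2 and 0 with E2 and 0 and 3 without E2. In Y537S 2 of the 14 were higher and 0 lower with E2, and 2 and 1 without E2. Y537S calls at the lipid, bile acid and xenobiotic receptor genes were 2 higher and 1 lower with E2, and 4 and 1 without E2. At the clock-linked genes they were 0 and 2 with E2, and 2 and 3 without E2. At the NR5, NR6 and NR0 genes they were 0 and 1 with E2, and 1 and 2 without E2. K303R counts of these last roles are not reported here. The 3 immediate-early orphan receptor genes, NR4A1 to NR4A3, had 3 well covered regions together. The 1 at NR4A1, whose product NUR77 is induced by many stimuli, held 137 fragments with E2 and 142 without E2 in Y537S cells, 116 with E2 and 113 without E2 in K303R cells, and 82 with E2 and 82 without E2 in wild-type cells. Without E2 it was 1.75-fold higher in Y537S (1.32 to 2.32) and 1.89-fold higher in K303R (1.41 to 2.54), and with E2 the ratios of 1.52 in Y537S (1.15 to 2.03) and 1.60 in K303R (1.20 to 2.15) were not called. Scaled by the lowest local background, 0 of the 3 immediate-early regions were called higher in K303R in either treatment. Under that scaling 1 was called higher in Y537S with E2 and 1 without E2.

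Some regions were listed for 1 receptor alone, in both its libraries. There were 11 for Y537S (2.31% of all regions), 12 for K303R (1.51%) and 7 for wild type (2.23%). The strongest for Y537S was a second NR4A1 region, chr12:52027179-52027493, with 28 fragments with E2 and 43 without E2, next to the region described above. The strongest for K303R was inside PPARD, chr6:35392225-35393081, with 58 fragments with E2 and 48 without E2, followed by ESRRA with 32 with E2 and 29 without E2 and RXRA with 19 with E2 and 32 without E2. The strongest for wild type was inside NR3C1, chr5:143343589-143343972, with 40 fragments with E2 and 36 without E2, a short way from the region that was lower in K303R. The others named by the same rule, at NR3C2, RARB, NR5A2 and NR1I3, had 10 to 21 fragments.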

How the data were processed

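ERα ChIP-seq of 6 samples of the MDA-MB-453 line was analysed from the 6 deposited peak lists. Per the labels' protocols, the antibody D8H8 was used on chromatin of 2 plates, and 2 ng of DNA went into each library for paired sequencing of 75 bp. Per the submitters' processing notes, the build was hg38 and the tools were MACS2, Bowtie2, bedtools, Picard and SAMtools, named without version or role. Control, threshold and filters are not given in these sources. Peaks were listed library by library. A peak has a summit, the authors' fold over local background (a ratio), −log10 values of p and q, and a score. The deposited score repeats the q-value on a scale of 10 and was not used.

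With a pseudocount of 1 in the fold and a Poisson p-value, the deposited fold and −log10 p-value give a whole number of fragments at the summit, which matched the deposited p-value to within 0.01% for 100% of peaks. Reads are not unique molecules and total depth is unknown, so intervals cover counting error only. Peaks overlapping by at least 1 bp were joined across lists, and a region's value in a library is its highest summit. Ratios were divided by the ratio of the library medians over well covered regions. Exact intervals are Clopper-Pearson intervals of the share of fragments. Recovery and calls were tested on simulated data. Gene spans come from a RefSeq table (GRCh38.p14), in which all 42 genes and 28 coregulator genes were matched. It has no strand, exons or introns. All 28 coregulator genes enter the counts over that list, but the values of some of them are not reported here. Promoter windows were missing for HNF4G, NR0B2, NR2F6, NR4A2 and VDR.

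Genes and regions were named by a rule: the 14 genes with the strongest regions, the regions called for E2, up to 12 regions called the same way without and with E2 (all 16 calls are given), the genes with the weakest regions, and the 3 strongest regions of each receptor alone. The genes, lists and tests were chosen with earlier results of these data known. Software was Python 3.11.15 with numpy 2.4.6, pandas 2.3.3, scipy 1.17.1 and matplotlib 3.10.9.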

Additional observations from a re-analysis of the deposited data

How the results depend on the processing

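No paired analysis was possible because each group has 1 library, and for the same reason no replicate could be left out. Centring on the median of the ratios and choosing regions on the 2 libraries compared were alternatives added after the data were seen. Member genes with a peak stayed within 40 to 42 per library at 25 kb. With the 10000 strongest peaks alone they were 23 in Y537S with E2, 22 in Y537S without E2, 24 in K303R with E2, 23 in K303R without E2, 22 in wild type with E2 and 19 in wild type without E2. The other windows (0, 10 and 100 kb) and a −log10 q of at least 10 kept the count within 1.5 times in every library. In the call counts below, the number of regions compared also changes with the minimum. A minimum mean of 20 fragments left 268 regions of these genes (59902 of all), and 100 left 91 (15599 of all), against 166 (33626 of all). Counts under these minimums are therefore not on the same total, and the shares over all regions under them are not reported here.

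For E2 in wild type (3 higher, 1 lower), 5 were higher when scaled by the lowest local background, 1 higher and 0 lower with a minimum mean of 100 fragments, 1 higher and 0 lower at a fold of 2, and 7 higher and 6 lower with a 95% interval. For E2 in Y537S (0 and 0), 2 were higher with a 95% interval. For E2 in K303R (2 higher, 1 lower), 22 were higher and 0 lower when scaled by background, 1 higher and 0 lower with a minimum of 100, 4 lower with a minimum of 20, and 8 higher and 5 lower with a 95% interval. The lower call was 0 when centred within 5 Mb windows, with summits joined within 200 bp, centred on the median of the ratios, or with regions chosen on the 2 libraries compared.

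For Y537S against wild type with E2 (8 higher, 10 lower), 20 were higher when scaled by background, 13 higher within 5 Mb windows and 13 on the median of the ratios, 16 lower with a minimum of 20, 3 higher and 6 lower with a minimum of 100, 4 higher at a fold of 2, and 18 higher and 19 lower with a 95% interval. Without E2 (17 higher, 15 lower), 35 were higher and 7 lower when scaled by background, 8 higher and 6 lower with a minimum of 100, and 7 higher and 7 lower at a fold of 2.

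For K303R against wild type with E2 (8 higher, 8 lower), 5 were higher when scaled by background, 5 lower within 5 Mb windows, 15 higher with a minimum of 20, 3 higher and 3 lower with a minimum of 100, 2 higher and 5 lower at a fold of 2, and 15 higher and 15 lower with a 95% interval. Without E2 (10 higher, 6 lower), 0 were higher and 39 lower when scaled by background, 17 higher with a minimum of 20, 4 higher and 3 lower with a minimum of 100, 3 higher and 2 lower at a fold of 2, and 15 lower with a 95% interval. Background scaling moved the median log2 ratio of all well covered regions by 0.18 with E2 and 0.28 without E2 in Y537S against wild type, by −0.14 with E2 and −0.44 without E2 in K303R, and by 0.39 for E2 in K303R.

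Of the 39 calls at named regions, 19 held under every alternative that could be fitted and 0 changed direction. At a fold of 2, 16 were lost, within 5 Mb windows 10, and scaled by background 8. The cause of these losses was not tested, other than the stricter fold itself. Changes under 1.5-fold, and any at regions below a mean of 50 fragments, were not detectable by the rule used.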

Other observations

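The genes of 28 coregulators, the proteins through which nuclear receptors activate or repress transcription, had 421 regions, of which 89 were well covered. A strong peak lay near 10 of the 28 genes in all 6 libraries (35.7%, with 22% of all protein-coding genes) and near 17 in any library (60.7%, with 40.7%). These genes are long too, with a median span of 112 kb against 24.2 kb for all protein-coding genes. They were not compared with genes of like length. NRIP1, for the estrogen-induced corepressor RIP140, held 225 to 295 fragments over the 6 libraries at chr21:15005218-15005841, and SMARCA4, for the chromatin remodeller BRG1, had 218 to 266. No well covered region lay at 8 of the 28 genes, EP300, NCOR1, CREBBP, MED1, PRMT1, PHB2, SAFB and TRIM24. The strongest PRMT1 region held 10 to 16 fragments and was missing from the list of wild type with E2, and the strongest EP300 region held 11 to 26.

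With E2, 0 of the 89 coregulator regions were higher in Y537S (0.0862% of all well covered regions), 4 in K303R (2.05%) and 3 in wild type (1.55%), and none was lower. Against wild type with E2, 8 coregulator regions were higher (6.06%) and 4 lower (8.59%) in Y537S, and 8 were higher (6.33%) and 0 lower (7.89%) in K303R. Without E2, 9 were higher (8.05%) and 3 lower (9.15%) in Y537S, and 3 were higher (5.49%) and 1 lower (5.86%) in K303R. The region at CARM1, for an arginine methyltransferase that acts with p160 coactivators, chr19:10863153-10863803, held 123 fragments with E2 and 138 without E2 in Y537S cells and 64 with E2 and 50 without E2 in wild-type cells, a ratio of 1.75 with E2 and 2.79 without E2. Chromosome 19 as a whole was high in Y537S, with a median log2 ratio of 0.27 with E2 and 0.21 without E2. The CARM1 ratios centred within 5 Mb windows are not reported here. At KAT2B, for the acetyltransferase PCAF, chr3:20081034-20081690 held 156 with E2 and 132 without E2 in Y537S cells and 52 with E2 and 65 without E2 in wild-type cells, a ratio of 2.73 with E2 and 2.05 without E2. A weak NRIP1 region, chr21:14940706-14941130, was the 1 region lower in Y537S in both treatments, with 30 fragments with E2 and 29 without E2 in Y537S cells and 81 with E2 and 92 without E2 in wild-type cells, a ratio of 0.337 with E2 and 0.318 without E2. These coregulator genes were named after their values were seen.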
